A study of Mus musculus with 5 samples.

Results

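A set of 9 genes that store, move or detoxify metals was followed through single cells of mouse liver and aorta. The set holds the metallothioneins Mt1 and Mt2, heme oxygenase Hmox1, the ferritin subunits Fth1 (heavy chain) and Ftl1 (light chain), the transferrin receptor Tfrc, transferrin itself (Trf), the iron hormone hepcidin (Hamp) and the iron exporter ferroportin (Slc40a1). The set was taken by name, not from measured values, as 9 of the 25872 genes found in any of the 3 count tables, and each of the 9 is in each table.

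The series concerns epsins of the liver, which are endocytic adaptor proteins encoded by Epn1 and Epn2, in atherosclerosis. Droplet single-cell RNA sequencing gave 5 libraries, each of them the only one of its group. A liver library labelled DKO and one labelled WT carry ApoE in their labels, as do an aorta library labelled DKO and one labelled WT, and a further WT liver library has no ApoE in its label. The protocol speaks of WT and Liver-DKO mice with n = 3, without saying how many mice went into a library. No source used here gives the exact alleles, the driver of any Cre, or the age and diet of the animals. With 1 library a group there is no replicate error, so no p-value is given, and a difference of genotype cannot be told apart from a difference between 2 libraries.

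The liver libraries with ApoE in their labels hold 4331 cells each, the aorta libraries 2800 each and the further WT liver library 616. Totals run from 1883798 to 10999072 unique molecular identifiers (UMIs, 1 per captured transcript) and medians from 1552 to 2772 UMIs a cell. Epn1 and Epn2 were not lower in hepatocytes of the library labelled DKO, with a DKO over WT ratio of 1.21 for Epn1 and 1.13 for Epn2, so these counts do not check that label, and DKO below stands for the library so labelled. Apoe stood at 32.8 and 36.3 counts per 1000000 UMIs (CPM, those of a gene over those of all genes in the cells) in hepatocytes of the liver libraries labelled DKO and WT with ApoE, and at 68.8 CPM in the WT library without it. Cell types are those the authors deposited. Hepatocytes here are the authors' hepatocyte clusters that other cell types' markers did not lead. This kept 3213 of 3382 cells in the DKO library, 4015 of 4040 in WT with ApoE and 261 of 616 in WT without it. In WT without ApoE, cluster 0 with 244 cells was left out. It had 1 leading gene of the bile duct list, Spp1, and 0 of the hepatocyte list. Its albumin (Alb) stood at 39831 CPM, against 34573 CPM in the kept cells, so the rule need not mark another cell type there. The kept cells include cluster 4, with 93 cells, led by mitochondrially encoded genes. Aortic smooth muscle cells are the authors' clusters VS1 to VS3. VS3 was led by Gm42418 and not by muscle genes, and it held 351 DKO against 72 WT cells. Bracketed ranges are exact 95% intervals for counting error only.

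Metallothioneins are small, cysteine-rich proteins that bind zinc and copper, and the transcription factor MTF-1 switches their genes on through short metal response elements. Ferritin is a shell of heavy and light chains that stores iron, transferrin carries iron in blood, and the transferrin receptor takes it into cells. Hepcidin, made by hepatocytes, is secreted and removes ferroportin from cell surfaces, and heme oxygenase frees iron from heme. Iron regulatory proteins bind a hairpin called the iron response element. In front of a coding sequence it lets them block translation, and behind the coding sequence it lets them protect the transcript.

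Mt2 and Mt1 lie next to each other on the plus strand of chromosome 8 (GRCm38/mm10, GENCODE vM21), Mt2 at chr8:94172664-94173568 and Mt1 at chr8:94179082-94180327, with 5514 bases between them. Hmox1 lies on the same chromosome at chr8:75093621-75100589, Trf at chr9:103204001-103230444 on the minus strand and Hamp at chr7:30942368-30944032 on the minus strand. Mt2 overlaps the antisense gene Gm45774, Ftl1 (chr7:45457944-45459884, minus) Gm10252, and Hamp Gm44662, all on the opposite strand. On the same strand Trf overlaps the protein-coding Gm20425 and Ftl1 the microRNA gene Gm22133, so their reads may be shared or dropped, and no source used here says whether the counting used strand. Because both were lower together in the aorta, the 250 bases before each RefSeq start (GRCm38.p6) are shown, with matches to TGCACNC or TGCGCNC, the core of the metal response element, in capitals on either strand. The Mt1 stretch is chr8:94178839-94179088 and the Mt2 stretch is chr8:94172368-94172617, both on the plus strand.
Mt1: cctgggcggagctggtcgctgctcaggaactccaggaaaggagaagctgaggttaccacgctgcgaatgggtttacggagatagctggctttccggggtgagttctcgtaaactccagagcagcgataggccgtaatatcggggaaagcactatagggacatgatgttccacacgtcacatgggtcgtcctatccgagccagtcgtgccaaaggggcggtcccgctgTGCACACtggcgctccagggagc
Mt2: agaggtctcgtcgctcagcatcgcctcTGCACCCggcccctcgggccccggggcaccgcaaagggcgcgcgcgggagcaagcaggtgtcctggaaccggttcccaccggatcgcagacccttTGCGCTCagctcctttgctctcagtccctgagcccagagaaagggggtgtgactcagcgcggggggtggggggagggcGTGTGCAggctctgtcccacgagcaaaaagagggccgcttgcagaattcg
In the window from 250 bases before to 50 after the start, Mt1 held 3 matches and Mt2 held 4. The other 2 matches of Mt1 lie in the first 30 bases from that annotated RefSeq start, chr8:94179089-94179118 on the plus strand. Whether Mt1 transcripts of these cells begin there was not tested, so these bases are not read as transcribed.
Mt1 start: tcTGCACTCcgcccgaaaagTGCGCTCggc
Of 32817 RefSeq windows of the same length, 25.7% held at least 1 match, 1.97% at least 3 and 0.518% at least 4. The windows of Fth1, Ftl1 and Hamp held 0 matches. Tfrc has 2 annotated starts, and the window of one held 2 overlapping matches and that of the other 0. A match is a description of letters and not of a bound site.

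Hairpins of the iron response element type were found in 4 of the 9 genes and in 0.11% of 21877 protein-coding genes. The search asked for a loop of CAGTG followed by A, C or T, between 5 upper stem pairs and at least 4 of the lower ones. Pairs of G with T were allowed, and an unpaired C had to stand just before the upper stem. The sequences are shown because they mark which of the 9 transcripts hold letters of this kind, and on which side of the coding sequence. Each is given in the sense of the gene, with the loop in capitals. Fth1 (chr19:9982733-9982759, plus strand), Ftl1 (chr7:45459780-45459806, minus strand) and Slc40a1 (chr1:45925466-45925492, minus strand) carried 1 before the coding sequence.
Fth1: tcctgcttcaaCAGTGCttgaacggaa
Ftl1: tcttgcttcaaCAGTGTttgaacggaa
Slc40a1: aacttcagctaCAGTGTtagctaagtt
Tfrc carried 4 behind its coding sequence, on the plus strand of chromosome 16 at chr16:32631220-32631246, chr16:32631599-32631625, chr16:32631664-32631690 and chr16:32631711-32631737.
Tfrc hairpin 1: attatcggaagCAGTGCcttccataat
Tfrc hairpin 2: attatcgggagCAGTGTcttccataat
Tfrc hairpin 3: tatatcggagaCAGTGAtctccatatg
Tfrc hairpin 4: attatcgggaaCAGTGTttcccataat

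Each gene had its own distribution over the tissues. Hamp was a liver transcript, with 23670 UMIs in the DKO liver library against 3 UMIs in the DKO aorta library, and the WT libraries with ApoE held 32343 in liver and 1 in aorta. Trf had 84687 and 70931 UMIs in the DKO and WT livers and 140 and 256 in the DKO and WT aortas. Hmox1 had the opposite order, with 35 and 29 UMIs in the livers and 921 and 1674 in the aortas. Slc40a1 stood higher in the livers, at 98.8 CPM in DKO and 110.0 CPM in WT, than in the aortas, at 4.17 and 4.86 CPM. Tfrc had the reverse order, at 12 and 15.1 CPM in the livers and 46.2 and 41.8 CPM in the aortas. Fth1, Ftl1, Mt1 and Mt2 were detected in both tissues.

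**Figure D1:**
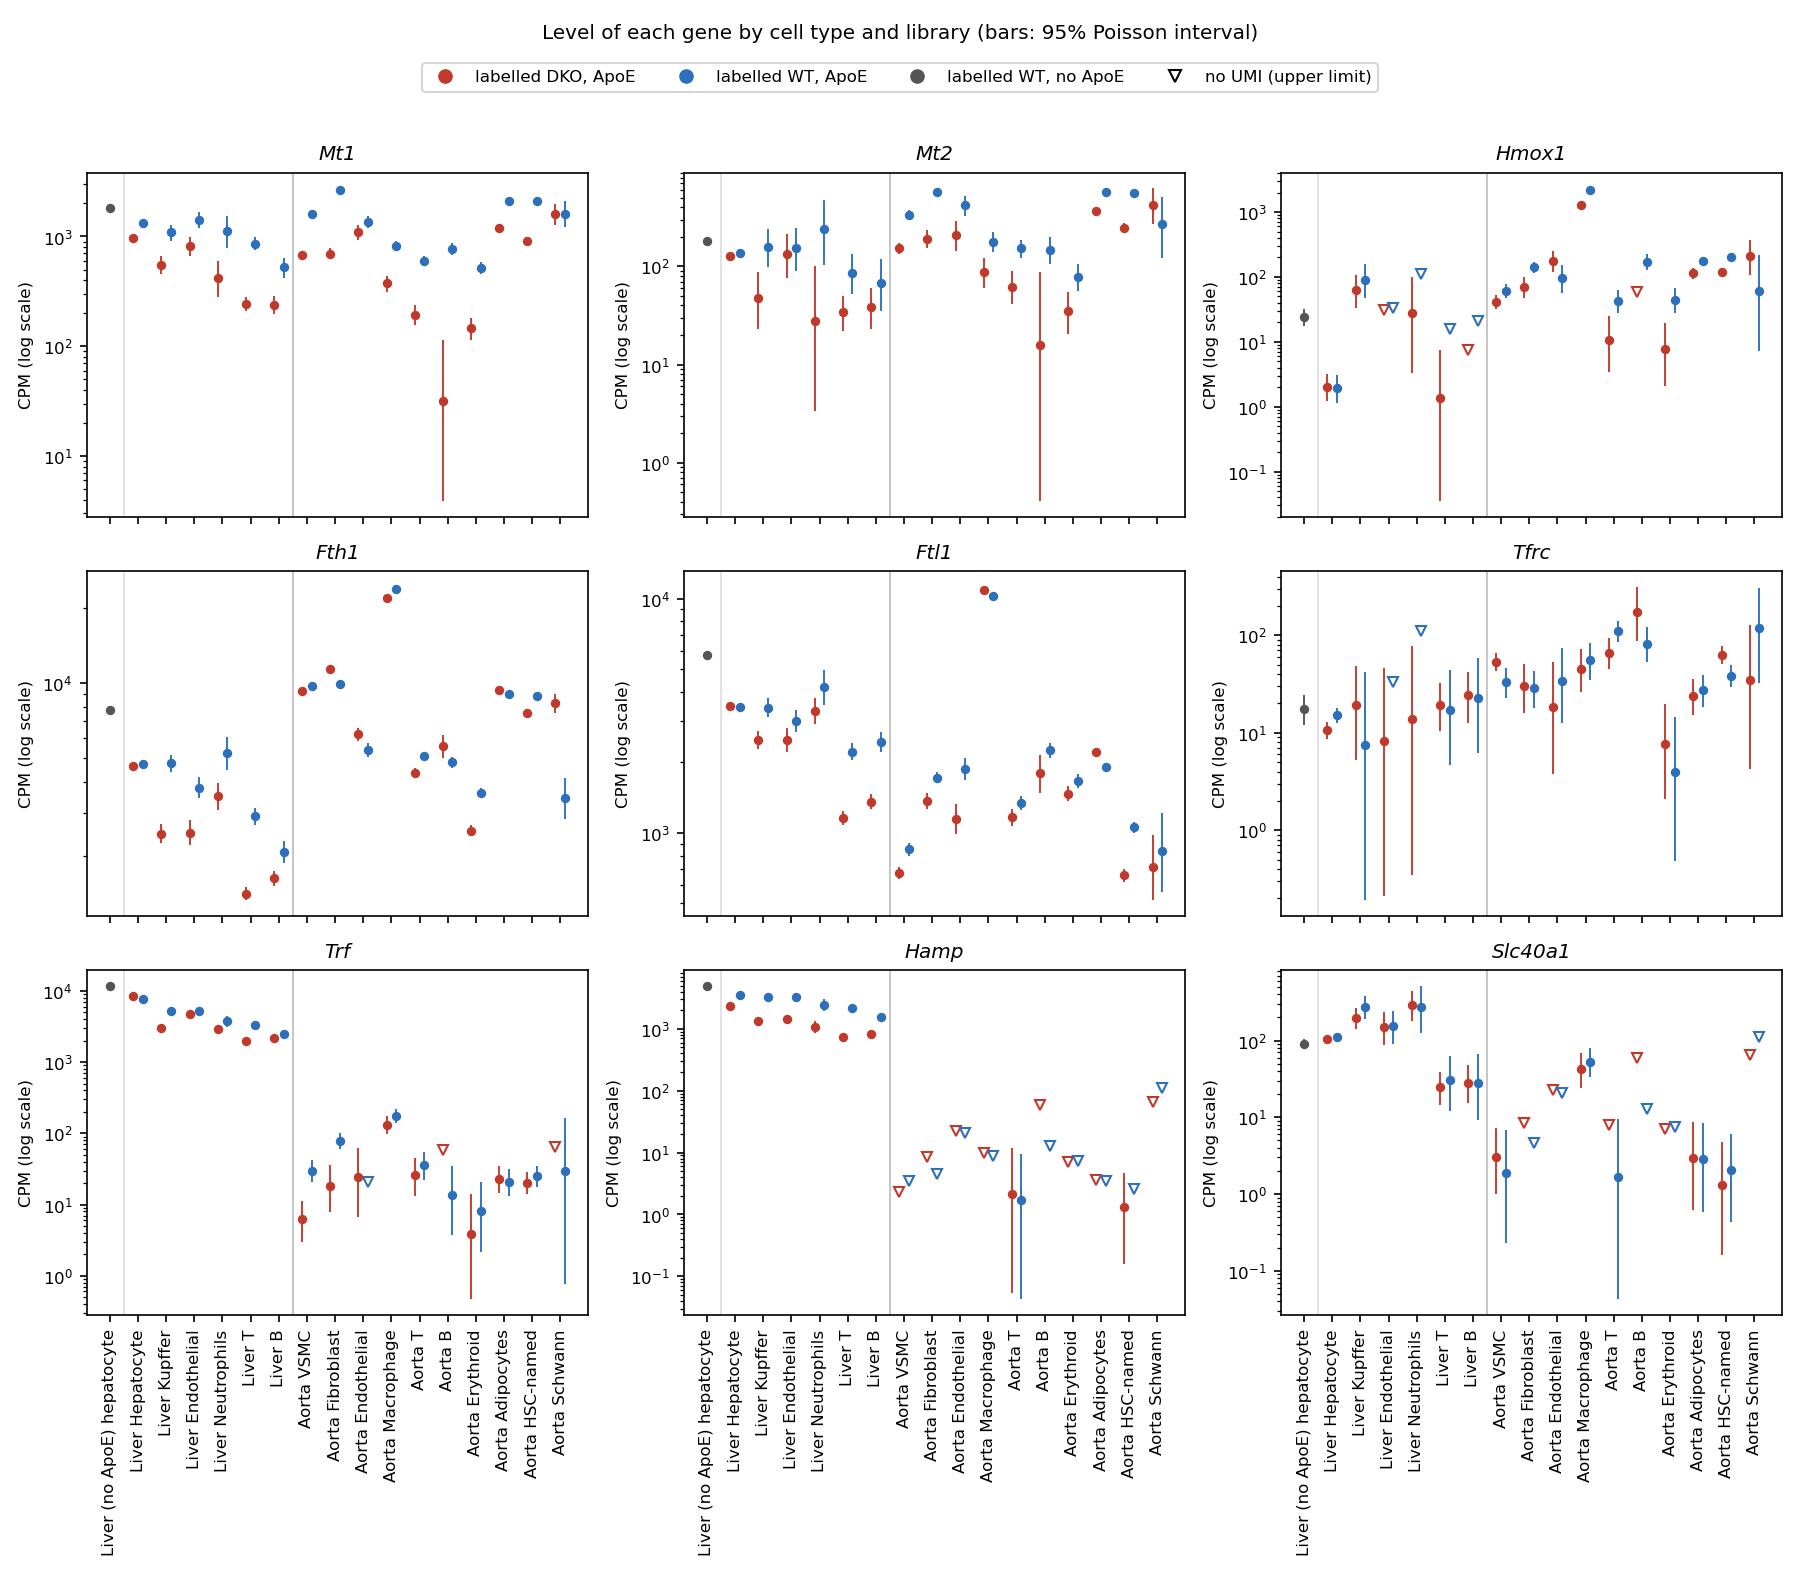
Level of each of the 9 genes in CPM on a log axis, by authors' cell type and library, with 95% counting intervals and with triangles at the upper limit where a cell type held no UMI. Hamp and Trf stand in liver cells, Hmox1 stands highest in aortic macrophages, and Fth1 and Ftl1 are high in aortic macrophages of both libraries.

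The libraries allow 3 comparisons, in which a gene was counted as past 1.5-fold in either direction when it had at least 100 summed UMIs. In hepatocytes of the DKO over the WT liver with ApoE, 0 of 8 counted genes passed, where 4.97% of all 8282 counted genes did. In aortic smooth muscle of DKO over WT, 3 of 6 passed, Mt1 and Mt2 lower and Tfrc higher, where 9.14% of 4331 genes did (5.98% lower and 3.16% higher). In hepatocytes of WT with over WT without ApoE, 1 of 8 passed, Ftl1 lower, where 31.7% of 6875 genes did (16.8% lower). That last share is large and the 2 libraries stand in separately filtered tables, so little can be read from 1 gene there. Hmox1 was not counted in hepatocytes, and Trf, Hamp and Slc40a1 were not counted in smooth muscle. There Hamp had 0 UMIs in both libraries, where the floor of 3 counts lies at 1.85 CPM in DKO and 2.82 CPM in WT. The median log2 ratio over the counted genes of the 9 was -0.09, -0.45 and -0.52 in these comparisons, and that over all genes was 0.00, -0.08 and -0.02.

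**Figure D2:**
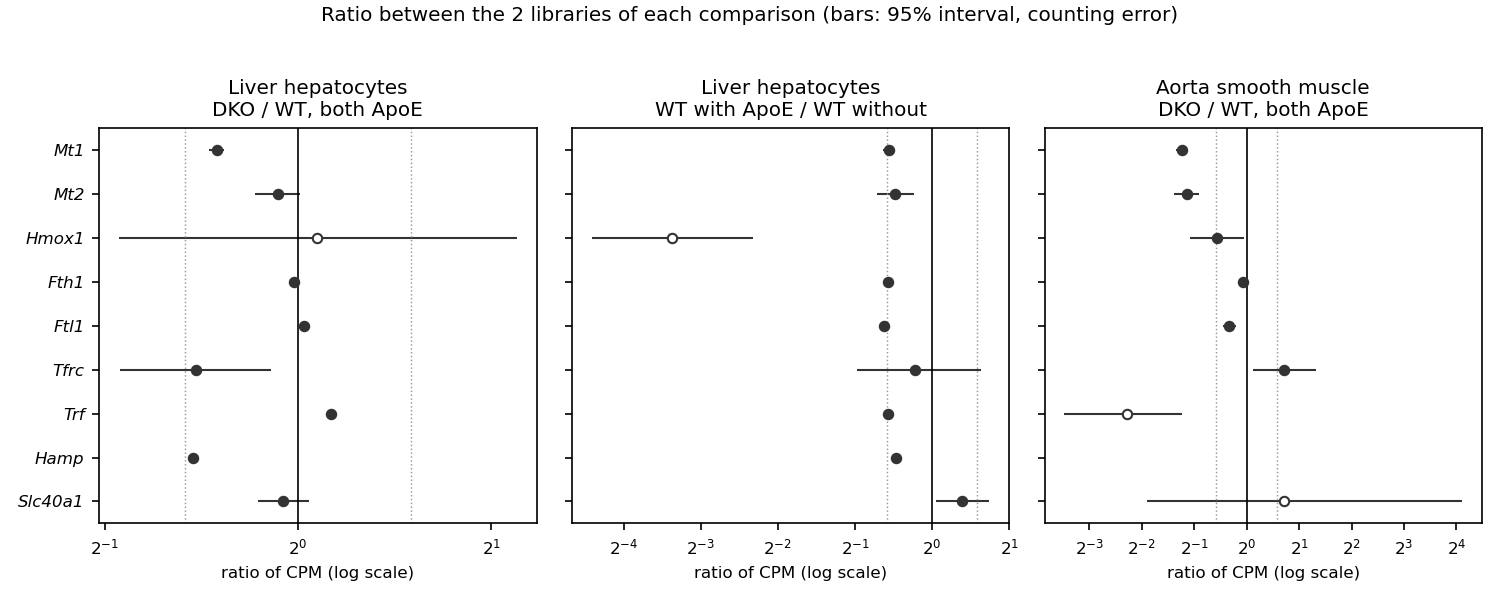
Ratio of CPM on a log axis for each of the 9 genes in hepatocytes (DKO over WT, and WT with over WT without ApoE) and aortic smooth muscle (DKO over WT), with 95% counting intervals and open symbols for genes under 100 UMIs. In smooth muscle Mt1 lies at 0.423 and Mt2 at 0.453, while Fth1 lies at 0.987 in hepatocytes and 0.947 in smooth muscle.

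Mt1 was lower in aortic smooth muscle of the library labelled DKO, at 673 CPM against 1590 CPM in WT, a ratio of 0.423 (0.392 to 0.457). Mt2 stood at 152 against 336 CPM, a ratio of 0.453 (0.384 to 0.535). Their intervals for each library do not overlap, but these hold counting error only. The share of all counted genes whose intervals do not overlap was not counted. Mt1 lay below 1 in all 14 aortic clusters that could be counted of 15 compared, past 1.5-fold in 12 of them, while 10.2% of all genes counted in the 15 clusters were lower by that much. The lowest ratios were 0.154 in the erythroid cluster ET1 (281 against 1820 CPM) and 0.265 in FB1, named fibroblast (698 against 2635 CPM). In ET1 and FB1, 44.7% and 14.1% of counted genes were lower by 1.5-fold. The median of all counted genes in ET1 was itself at a log2 ratio of -0.53. The exceptions to 1.5-fold were EC1, the endothelial cluster, at 0.809 and HS1 at 0.810. Mt2 lay below 1 in all 8 counted aortic clusters and past 1.5-fold in 7, with AP2 at 0.713 the exception. With the median of all genes set to 0, or with the dominant genes left out of the total, Mt1 was still below 1 in all 14 and Mt2 in all 8. In VS3 the direction of Mt1 depended on the cells taken. In cells of 500 or more genes and less than 10% mitochondrial UMIs its log2 ratio was 0.12 and not -1.40. The aortic clusters named hematopoietic stem cells were led by other genes, such as Mmp13, Hp and Lcn2 in HS2 and the cartilage genes Col2a1 and Acan in HS3, and those named adipocytes by Serpinf1, Igfbp6 and other fibroblast-type genes. FB1, named fibroblast, was led by Col10a1, Spp1 and Thbs1, with 1 gene of the fibroblast list among its leading genes. All these clusters are called here by the authors' cluster names.

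Transcripts of muscle were present outside muscle cells too. Acta2, the actin of smooth muscle, stood at 15246 and 14576 CPM in the smooth muscle of DKO and WT. It stood at 6180 and 5553 CPM in ET1, at 7174 and 3031 CPM in FB1 and at 1997 and 1946 CPM in T cells. Of the Mt1 UMIs, smooth muscle gave 24.0% in the DKO aorta and 16.0% in WT, from 36.9% and 22.7% of the cells. The clusters named hematopoietic stem cells gave 30.2% and 28.9% from 19.3% and 19.6% of the cells. T cells gave 1.98% and 3.33% from 4.64% and 6.36%. Free RNA of the aorta was not measured, so an Mt1 level in one cell type is not read as made by those cells. The part of RNA from other cells in the cluster ratios was not tested. Acta2 was added after the values were seen.

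In the liver Mt1 showed a smaller difference of the same direction. Hepatocytes held 984.7 CPM in the DKO library and 1318 CPM in WT with ApoE, a ratio of 0.747 (0.727 to 0.768), and 1948 CPM in WT without ApoE. Mt2 stood at 128, 137 and 191 CPM in the same libraries, with a DKO over WT ratio of 0.930 (0.858 to 1.01) whose interval includes 1 and whose log2 value was 0.11 in those stricter cells. Mt1 lay below 1 in all 12 liver clusters compared, and its ratio ran from 0.284 in T cells to 0.948 in hepatocyte cluster 7. It was past 1.5-fold in 4 of them, against 8.58% of all genes counted in the 12 clusters, namely T cells, Kupffer cells, endothelial cells and hepatocyte cluster 2, where 18.9%, 36.4%, 34.5% and 12.8% of all counted genes were lower by that much. In T cells Alb, which they should not make, had a ratio of 0.482, in Kupffer cells 0.496 and in endothelial cells 0.672, and the part of hepatocyte RNA in their Mt1 values was not tested. Per 1000 Alb UMIs hepatocytes held 26.0 and 29.7 Mt1 UMIs in DKO and WT, T cells 20.2 and 34.2, and Kupffer cells 31.8 and 30.9. Values per 1000 Alb UMIs, here and below, take all cells of the authors' hepatocyte type, with the clusters that are left out elsewhere.

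Thinned to 500 UMIs a cell, 35.9% of DKO and 49.6% of WT hepatocytes with ApoE had an Mt1 UMI, against 11.6% and 34.6% of liver T cells. In the hepatocyte clusters 5, 7 and 8, which have the deepest cells, the Mt1 log2 ratio was -0.20 and not -0.42.

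Between the WT libraries, the metallothioneins of hepatocytes stood lower with ApoE than without it, at ratios of 0.677 for Mt1 and 0.718 for Mt2. In the stricter cells both log2 ratios became 0.03, from -0.56 and -0.48, so the direction does not hold there. The number of Mt2 UMIs for each Mt1 UMI was 0.130 and 0.105 in the DKO and WT livers with ApoE, 0.0989 in the liver without it, and 0.267 and 0.242 in the DKO and WT aortas.

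**Figure D3:**
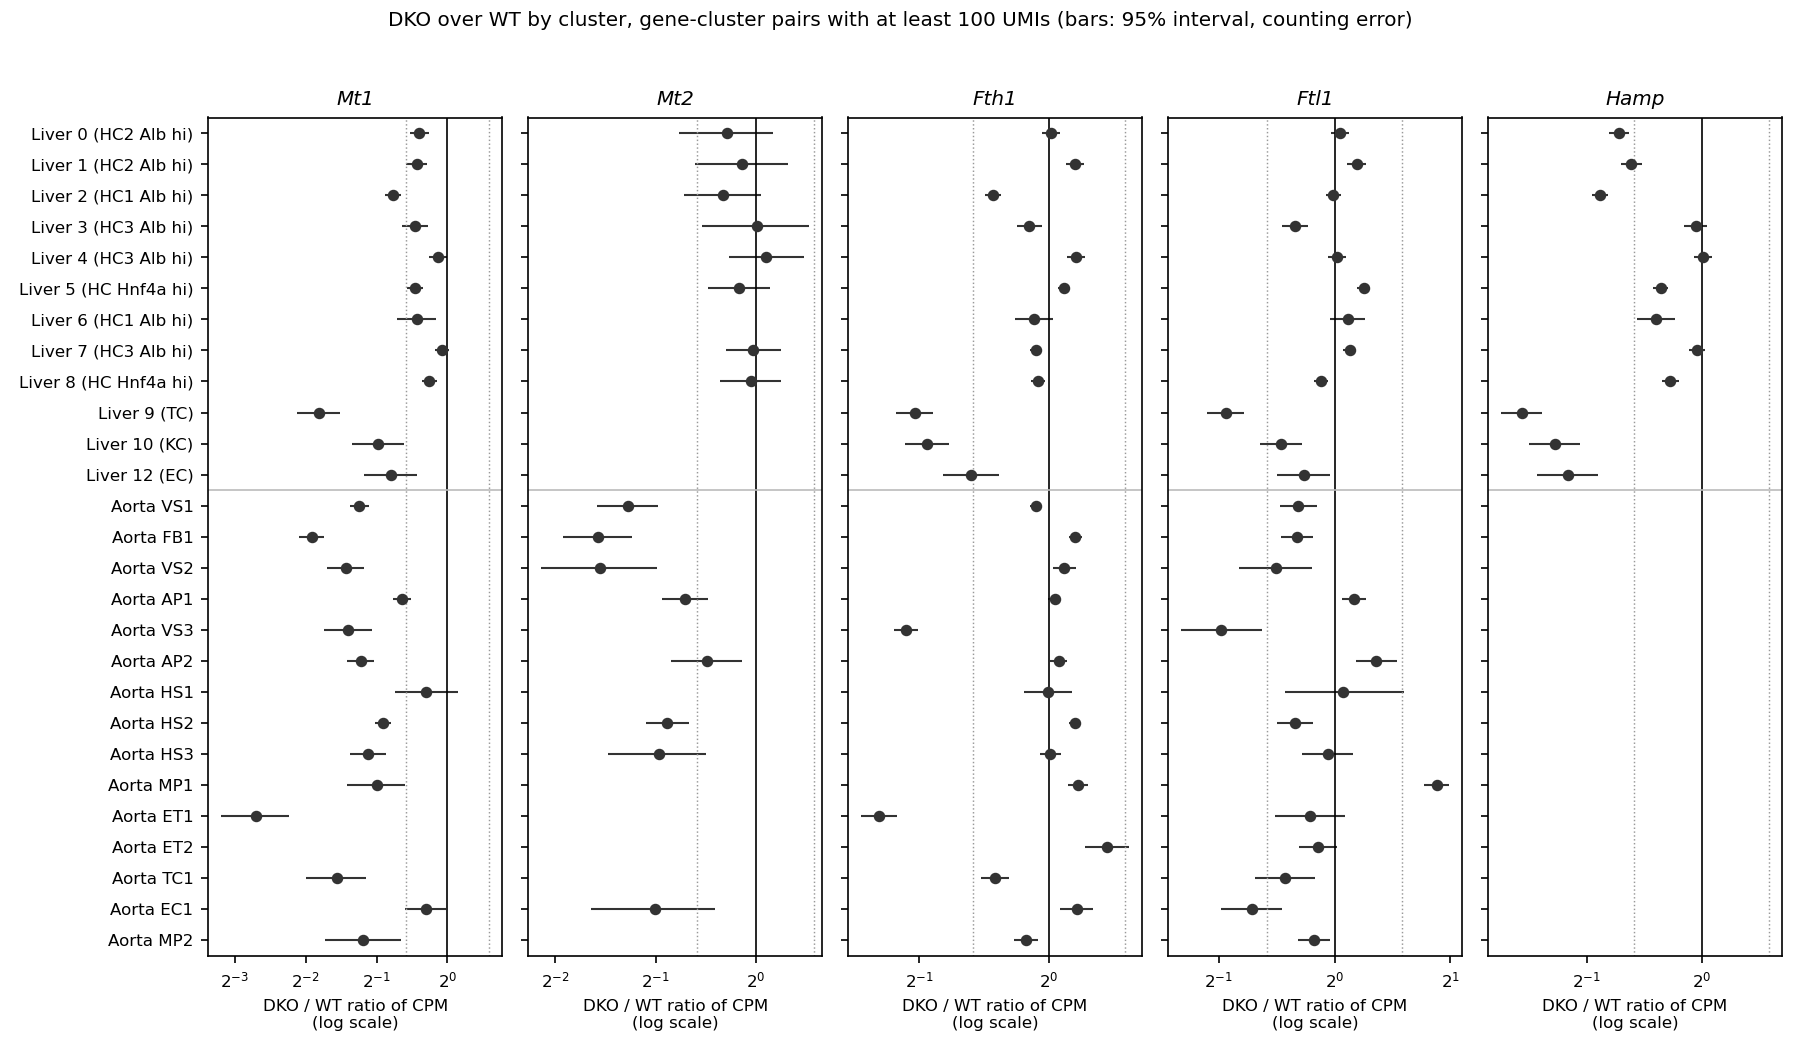
Ratio of CPM, DKO over WT, on a log axis for Mt1, Mt2, Fth1, Ftl1 and Hamp in each cluster with at least 50 cells in both libraries, with 95% counting intervals. Mt1 points lie below 1 in the 14 counted aortic clusters and in the 12 liver clusters, while Fth1 points lie on both sides of 1.

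Hmox1 stood highest, among the authors' cell types, in aortic macrophages, though unevenly. They held 1265 CPM in the DKO and 2177 CPM in the WT aorta, and gave 51.9% and 53.9% of all Hmox1 UMIs of their libraries from 6.18% and 7.93% of the cells. Within them the level differed by subtype. MP4, 20 cells in each library, stood at 4864 CPM in DKO and 8030 CPM in WT, though its leading genes are the neutrophil genes S100a9 and S100a8. MP3 followed at 2405 and 3276 CPM, from 14 and 29 cells. MP1, with 82 and 118 cells the macrophage cluster of most cells, held only 12 and 44 Hmox1 UMIs, or 105.5 and 226 CPM. MP4 alone gave 210 of the 478 macrophage UMIs in DKO and 439 of the 903 in WT. MP2 held 504 against 1972 CPM, a ratio of 0.256 (0.192 to 0.337), in a cluster where 17.6% of counted genes were lower by 1.5-fold. FB1 was also lower, at 69.1 against 141 CPM, and AP1 at 138 against 224 CPM, where 14.1% and 7.24% of genes were. HS2, at 143 against 125 CPM, was not, with a ratio of 1.15 (0.803 to 1.65). Smooth muscle held 41.3 and 61.0 CPM, a ratio of 0.677 (0.474 to 0.968). In the liver Hmox1 was scarce. Hepatocytes had 19 UMIs in DKO and 17 in WT with ApoE, or 2.07 and 1.94 CPM, and 18 UMIs or 19.99 CPM in WT without ApoE. Kupffer cells, the macrophages of the liver that recycle heme iron, had 13 and 12 UMIs, or 62.2 and 90.8 CPM.

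Both ferritin transcripts differed by less than 1.5-fold in the hepatocytes of DKO over WT. Fth1 stood at 4663 CPM in DKO and 4726 CPM in WT, a ratio of 0.987 (0.973 to 1) that turns above 1 when the dominant genes are left out of the total (log2 ratio 0.06), and at 7028 CPM in WT without ApoE. Ftl1 stood at 3509 and 3433 CPM, a ratio of 1.02 (1.01 to 1.04), and at 5284 CPM in WT without ApoE. Set against that library, the WT liver with ApoE had ratios of 0.673 for Fth1 and 0.650 for Ftl1. Reads of Ftl1 can be shared with its pseudogene Ftl1-ps1, which stood at 7.09 and 12.8 CPM in the DKO and WT hepatocytes with ApoE.

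In aortic smooth muscle Fth1 stood at 9247 CPM in DKO and 9759 CPM in WT, a ratio of 0.947 (0.924 to 0.971) whose direction is lost when the total leaves out mitochondrially encoded and other dominant genes (log2 ratio 0.00). Ftl1 stood at 677 and 849 CPM, a ratio of 0.797 (0.729 to 0.871). Across the 15 aortic clusters Fth1 was above 1 in 9 and below in 6, and only VS3 (0.467) and ET1 (0.404) were past 1.5-fold, where 27.3% and 44.7% of genes were lower by that much. Ftl1 was past it upward in the macrophage cluster MP1, at 13581 against 7369 CPM, a ratio of 1.84 (1.71 to 1.98), where 4.67% of genes were higher by that much. The endothelial cluster EC1 had an Ftl1 ratio of 0.609 in the opposite direction, where 10.4% of genes were lower. In VS3 the Ftl1 ratio was 0.506, and its log2 ratio was 0.04 among cells passing the gene and mitochondrial limits.

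The 2 chains did not stand in one proportion over cell types. The number of Ftl1 UMIs for each Fth1 UMI was 0.765 (0.754 to 0.776) in the DKO liver and 0.733 (0.722 to 0.743) in the WT liver with ApoE, and 0.196 and 0.220 in the DKO and WT aortas. Smooth muscle cluster VS1 stood at 0.0765 and 0.0884, the macrophage cluster MP1 at 0.677 and 0.428, and the erythroid cluster ET2 at 0.863 and 1.29. Capture of the 2 transcripts may differ, so the ratio is compared across cells and is not a chain ratio of the protein. Aortic macrophages had the highest Fth1 among the authors' cell types, with 22066 CPM in DKO and 23880 CPM in WT, and 10852 and 10278 CPM of Ftl1. MP4 reached 48289 and 59666 CPM of Fth1.

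**Figure D4:**
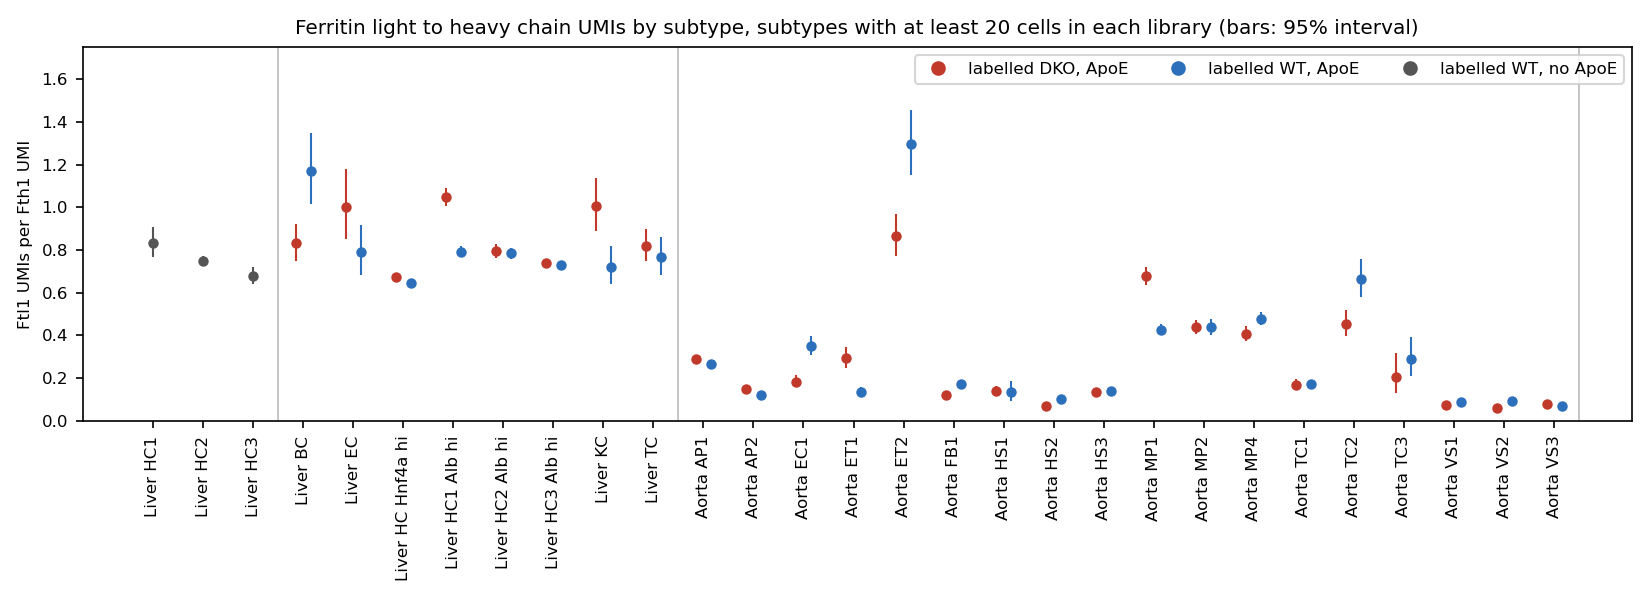
Ftl1 UMIs for each Fth1 UMI by authors' subtype with at least 20 cells, in the liver and aorta libraries, with 95% counting intervals on a linear axis. Smooth muscle cluster VS1 lies at 0.0765 and 0.0884, while the hepatocyte subtype HC1 Alb hi lies at 1.05 and 0.792.

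Tfrc differed in opposite directions in the 2 tissues, a contrast that was not tested. Hepatocytes had 97 UMIs in DKO and 134 in WT with ApoE, or 10.6 and 15.3 CPM, a ratio of 0.693 (0.528 to 0.907). Aortic smooth muscle had 87 UMIs in DKO and 35 in WT, or 53.7 and 32.9 CPM, a ratio of 1.63 (1.09 to 2.49). Those are small numbers of UMIs, and the lower bound of the smooth muscle ratio lies close to 1. WT liver without ApoE held 16 UMIs, or 17.8 CPM. Over the aorta Tfrc was spread thin, at 4.002 CPM in the WT erythroid cells as a whole. The T cell subtype TC2 stood at 176 CPM in WT and 97.9 CPM in DKO, and the 14 B cells of DKO held 11 UMIs. Erythroid precursors are known for the receptor, and here the erythroid clusters held 4 UMIs in DKO and 2 in WT.

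Trf was slightly higher in hepatocytes of the library labelled DKO, at 8722 against 7762 CPM, a ratio of 1.12, and stood at 11496 CPM in WT without ApoE. The ratio lay above 1 in 8 of the 12 liver clusters, all of them hepatocyte clusters. In T cells it was 0.590 and in Kupffer cells 0.580, where Alb stood at 0.482 and 0.496. Per 1000 Alb UMIs Trf stood higher in DKO in these cells too, at 163 against 133 in T cells and 172 against 147 in Kupffer cells, and at 230 against 175 in hepatocytes. In aortic smooth muscle there were 10 Trf UMIs in DKO and 32 in WT, of which 21 came from 1 cell of VS2. Over all aortic cells Trf was lower in DKO, at 22.5 against 40.1 CPM, where 5.79% of genes were lower by 1.5-fold. FB1 alone held 8 and 63 UMIs.

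Hamp was lower in hepatocytes of the library labelled DKO than in WT with ApoE, at 2386 against 3480 CPM, a ratio of 0.686 (0.674 to 0.698), and WT without ApoE held 4811 CPM. Over the whole liver it was lower by more, at 2152 against 3405 CPM, where 2.55% of genes were lower by 1.5-fold, and the share of hepatocytes among the cells was 78.1% in DKO and 93.3% in WT. The difference was uneven over hepatocyte clusters. The ratio was 0.541 in cluster 2, 0.608 in cluster 0 and 0.655 in cluster 1, where 12.8%, 8.03% and 8.72% of counted genes were lower by 1.5-fold. It was 0.966, 1.01 and 0.974 in clusters 3, 4 and 7, whose intervals include 1. In clusters 5, 6 and 8 it was lower by less than 1.5-fold, with intervals below 1. Within clusters 5, 7 and 8 together the log2 ratio was -0.25 and not -0.54. The share of hepatocytes with a Hamp UMI was 91.9% in DKO and 99.4% in WT, and 65.4% and 82.7% when each cell was thinned to 500 UMIs. T cells of the liver, at medians of 1887 and 2685 UMIs a cell against 1753 and 1536 in hepatocytes, had 31.5% and 65.7% after thinning. Albumin (Alb), the main secreted protein of hepatocytes, had ratios of 0.649, 0.760 and 0.707 in clusters 2, 0 and 1. Its ratios were 0.890, 0.847 and 1.002 in clusters 3, 4 and 7, so in clusters 3 and 4 it was lower where the Hamp interval includes 1. In clusters 5, 6 and 8 Alb was lower in DKO too, at 20689 against 24426, 39609 against 50570 and 27849 against 33662 CPM. Haemoglobin Hbb-bs in hepatocytes was 69.1 CPM in DKO and 5.13 CPM in WT. The part of either in the Hamp difference was not tested.

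Hamp has a near copy, Hamp2, and reads may be split between them. Hamp2 stood at 513 and 512 CPM in the DKO and WT hepatocytes, a ratio of 1.003 (0.963 to 1.045). The sum of both genes had a ratio of 0.726 (0.715 to 0.738). In WT with over WT without ApoE the sum stood at 3992 against 6446 CPM, a ratio of 0.619, and Hamp2 at a ratio of 0.313. The sum and Hamp2 were added after the values were seen.

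Hamp UMIs were also present in liver cells that are not hepatocytes. T cells held 729 and 2164 CPM in DKO and WT, Kupffer cells 1320 and 3207 CPM, and endothelial cells 1456 and 3272 CPM. Divided by Alb, the values were close to those of hepatocytes. There were 63.2 and 78.6 Hamp UMIs per 1000 Alb UMIs in all DKO and WT cells of the authors' hepatocyte type. T cells had 60.1 and 85.9, and Kupffer cells 75.6 and 91.1. Free RNA of lysed hepatocytes was not measured in these files, so the Hamp levels of other cells are not read as expression.

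**Figure D5:**
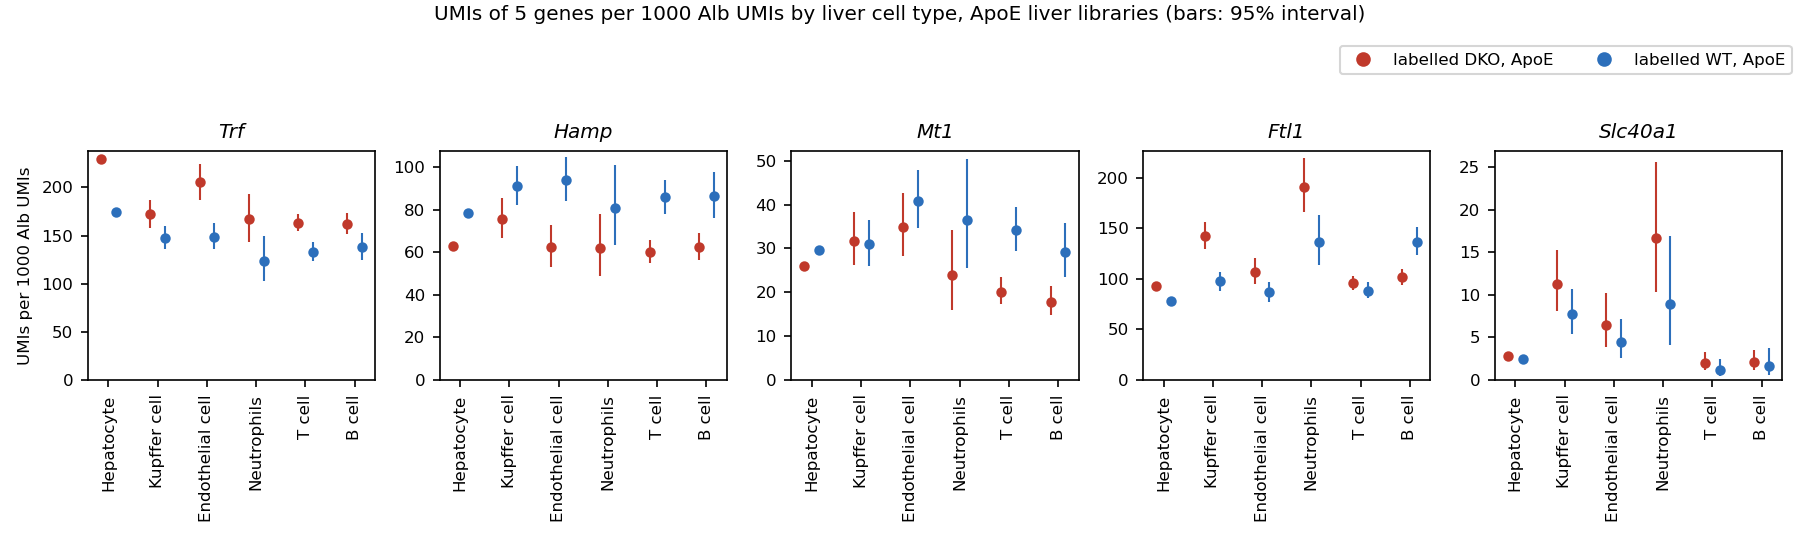
UMIs of Trf, Hamp, Mt1, Ftl1 and Slc40a1 per 1000 Alb UMIs by liver cell type in the DKO and WT libraries with ApoE, with 95% counting intervals on a linear axis. Hamp stands near its hepatocyte value in all types, while Slc40a1 stands higher in Kupffer cells, endothelial cells and neutrophils than in hepatocytes.

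Slc40a1 was within 1.5-fold in hepatocytes, at 105 and 110 CPM in DKO and WT with ApoE, a ratio of 0.949 (0.868 to 1.04), and at 84.4 CPM in WT without ApoE. Kupffer cells stood at 196 and 272 CPM and neutrophils at 291 and 271 CPM. Per 1000 Alb UMIs hepatocytes held 2.78 and 2.48 Slc40a1 UMIs, Kupffer cells 11.2 and 7.73, and neutrophils 16.7 and 8.86, so the order there differs from that of Hamp. In the aorta the cells named macrophages had 16 and 22 of the 26 and 31 Slc40a1 UMIs, and 16 and 18 of those were in MP4, the cluster led by neutrophil genes. The other macrophage clusters held 0 in DKO and 4 in WT.

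Beyond the 9 genes, those of a list of other iron and heme genes were counted in hepatocytes of DKO over WT, where 2.28% of all genes were higher and 2.69% lower by 1.5-fold. Of 40 counted, 0 were higher and 2 lower, with a median log2 ratio of 0.02. The lower ones were Urod, a heme synthesis enzyme, at 24.8 against 39.0 CPM, a ratio of 0.635, and Blvra, a biliverdin reductase, at 8.95 against 13.7 CPM, a ratio of 0.654. Tmprss6, a protease that restrains hepcidin, was within 1.5-fold at 166 against 115 CPM, a ratio of 1.44. Of 21 zinc and copper genes 0 were higher and 1 lower, the copper pump Atp7a at 43 against 63 UMIs. Of 23 NRF2 target genes 0 were higher and 1 lower, Prdx1, a peroxidase, at 1116 against 2078 CPM.

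In aortic smooth muscle, where 3.16% of all genes were higher and 5.98% lower, 13 of the iron and heme genes could be counted, of which 0 were higher and 1 lower (the iron-sulfur scaffold Iscu, 0.647). The 8 counted zinc and copper genes held 0 higher and 1 lower (Slc30a9, a zinc transporter family gene, 0.587), and the 14 NRF2 targets held 0 higher and 2 lower (Me1 at 0.442 and Bach1 at 0.563). In WT with over WT without ApoE 14.9% of all genes were higher and 16.8% lower, with a median log2 ratio of -0.02. There, 5 of 38 iron and heme genes were higher, among them Alas1, the first enzyme of heme synthesis, at 2.44, and 11 were lower, among them Hjv, a hepcidin regulator, at 0.225. Of 23 NRF2 targets 3 were higher and 13 lower, with a median log2 ratio of -0.67.

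Genes whose levels followed those of the 9 most closely were sought across the authors' subtypes, taken in each library, over 49 points that share library, tissue and depth. The measure is Pearson's r of log2 CPM, and no p is given. Mt2 was the gene most like Mt1, at 0.868, followed by Pfdn1 at 0.862. Fth1 was followed by Ost4 at 0.848, Ftl1 by Cebpa at 0.741 and Hmox1 by Pmp22 at 0.903. Hamp was followed by Vtn, C8g and Ttr at 0.999, Trf by Apoc4 at 0.970 and Slc40a1 by Asgr2 at 0.967. The points hold 18 from liver and 31 from aorta, tissues between which Hamp, Trf and Slc40a1 differ widely. Tfrc had too few UMIs for the search.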

How the data were processed

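Single-cell RNA libraries of mouse liver and aorta were read from 3 tables that the authors deposited, which hold raw UMI counts, with their metadata of cell names, cell types, subtypes and clusters. Cell Ranger 7.1.0 and the genome build mm10 are named per the submitters' processing notes. The summed counts of every cell equalled the deposited total. Of the metadata, 24 columns in each table were not used. The number of cells per library was set by the authors, and no source used here says how doublets were treated, so no doublet caller was run. Pairs of libraries shared at most 7 cell barcodes.

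Counts were summed over the cells of a type in a library and given as CPM with exact Poisson intervals. Ratios have exact conditional binomial intervals and shares Clopper-Pearson intervals at 95%. A ratio was counted from 100 summed UMIs and as past at 1.5-fold, and 3 counts is the floor for a count of 0. Hepatocyte clusters were left out where, among up to 10 leading genes, markers of another class outnumbered hepatocyte markers. Clusters were compared singly with at least 50 cells in both libraries. The interval code was tested on simulated data for aortic smooth muscle, where intervals covered the set ratio in 92.0% to 96.0% of genes. There 4-fold changes were called in 100% and 2-fold changes in 98% of 50 genes each way, and 0.83% of 4099 unchanged genes. The simulated sums were Poisson draws without variation between cells or libraries, so that last share is not a rate of false calls for real libraries. Python 3.11.15, numpy 2.4.6, pandas 2.3.3, scipy 1.17.1 and matplotlib 3.10.9 were used. Sequences came from RefSeq (GRCm38.p6 promoters, of which 6 of the 9 genes had an entry) and from the mm10 genome.

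The 9 genes, the lists and the markers were chosen with earlier results of these data known. All 9 are named in every type, and from each list up to 4 genes by the bound of the ratio nearest to 1, of which some are printed. The alternatives tried were other totals, equal weights for cells, stricter cells, a lower UMI minimum, the authors' whole cell type, single clusters and thinning.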

Additional observations from a re-analysis of the deposited data

Results flagged for a closer look

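Of Mt1, Mt2, Fth1, Ftl1 and Tfrc, which had at least 100 UMIs in both comparisons, 2 had DKO over WT ratios in opposite directions in the 2 tissues. Genes under that number in either tissue, namely Hmox1, Trf, Hamp and Slc40a1, were left out of this count. Directions were taken as opposite where the intervals, for counting error only, lay on opposite sides of 1. The share of all genes that meet this rule was not counted. For Ftl1 the log2 ratio in liver hepatocytes exceeded that in aortic smooth muscle by 0.36, with 1.02 in hepatocytes and 0.797 in smooth muscle as plain ratios. For Tfrc the log2 ratio in hepatocytes minus that in smooth muscle was -1.24, with 0.693 and 1.63 as plain ratios. Each side rests on 1 library a group, and the differences between tissues were not tested.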

How the results depend on the processing

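No paired analysis was possible because each group holds 1 library, and for the same reason no replicate could be left out. In hepatocytes of DKO over WT the 0 genes past 1.5-fold became 2, Hamp and Tfrc, both lower, with every cell weighted alike (8.30% of all genes), and 1, Tfrc, lower in cells of 500 or more genes and less than 10% mitochondrial UMIs (10.8%). In WT with over WT without ApoE 31.7% of all genes passed in the main setting. There the 1 gene became 0 when mitochondrially encoded and other dominant genes were left out of the total. The count became 2 with every cell weighted alike, 2 in the stricter cells, 2 with a minimum of 20 UMIs and 3 over the authors' whole cell type. In aortic smooth muscle, with 9.14% of all genes in the main setting, the 3 genes stayed 3 or became 4. The 4 came with a minimum of 20 UMIs, or without VS3, a setting added after the data were seen. Shares of all genes under the alternatives are not given for these 2 comparisons. So these changes in count are not read as a result about the 9 genes. Of 664 single-gene ratios over all alternatives 52 turned in direction, 19 of them among the 155 in the stricter cells. Those past 1.5-fold before they turned were Mt1 and Ftl1 in aortic VS3, at log2 ratios of 0.12 and 0.04 in the stricter cells. Others were hepatocyte Mt2 and Fth1 of DKO over WT, at 0.11 and 0.15, and Mt1 and Mt2 of WT with over WT without ApoE, at 0.03 each, also in the stricter cells. The cause was not tested. Of single-gene ratios, 50 moved beyond their counting interval in the stricter cells and 103 did not. With every cell weighted alike 49 moved and 106 did not. Counting error is wide for Tfrc, Hmox1 and Slc40a1, whose counts are low.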

Other observations

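In hepatocytes of WT with over WT without ApoE, NRF2 target genes with low levels beside Hmox1 included the glutathione transferase Gstm3 at 26.6 against 311 CPM, a ratio of 0.0855, and Osgin1 at 24.2 against 89.9 CPM. Nfe2l2, which encodes NRF2, stood at 56.4 against 163 CPM, a ratio of 0.346. Bach1, a repressor of heme oxygenase, was higher at 69.7 against 37.8 CPM. Where 31.7% of all genes were past 1.5-fold these values describe 2 libraries in separately filtered tables.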
